A study of Homo sapiens with 10 samples.

Results

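SH-SY5Y cells carrying chimpanzee FOXP2 (ptrFOXP2) were compared with SH-SY5Y cells carrying Rhesus monkey FOXP2 (mmuFOXP2). The comparison holds 4 of the 10 libraries, replicates A and B of each condition, which were chosen by the cDNA named in their labels. SH-SY5Y is a human neuroblastoma line, and all cells of the study had been stably transfected with a linearized pcDNA3 plasmid and kept in geneticin. The plasmid was empty (pcDNA3) or carried FOXP2 cDNA of isoform I from 1 of 4 species. Besides ptr and mmu these were the human (hsaFOXP2) and the marmoset (cjaFOXP2) form. Per the labels, transfection of the 1 cell line was done on 2 occasions, which gave replicates A and B and are called rounds here. The p-values below therefore measure the spread between such transfections, and those from limma pool it over all 5 conditions. The cells were transfected human cells, and nothing here was measured in a chimpanzee or a Rhesus monkey. Polyadenylated RNA was sequenced, and expression is given as BPKM, a measure of mapped bases that is scaled by exon length and by the mapped bases of the library.

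FOXP2 is a forkhead transcription factor that acts mainly as a repressor and works as a dimer with itself or with FOXP1 and FOXP4. In the brain it is known for its part in circuits of motor learning, and disruption of the human gene causes a speech and language disorder. The chimpanzee and the Rhesus proteins are near identical. Per the study's sequence comparison, the exchanges assigned to their lineages are silent, and the longest polyglutamine tract differs slightly in length. The pair therefore sets side by side cells that differ little in the encoded protein but come from different transfections.

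Because both cDNAs differ in that tract, its human reference sequence is shown. In human isoform I (GENCODE v44, 715 amino acids) the longest run of glutamine codons spans 40 codons, from codon 152 to codon 191. It lies in exon 5 of 17, within the coding sequence, on the plus strand at chr7:114629862-114629981 (GRCh38). The sequence mixes the synonymous glutamine codons, and the 14 CAA codons are in capitals among 26 CAG codons.
human FOXP2 glutamine tract: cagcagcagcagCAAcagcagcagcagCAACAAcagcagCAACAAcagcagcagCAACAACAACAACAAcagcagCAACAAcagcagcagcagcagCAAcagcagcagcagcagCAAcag
The chimpanzee and Rhesus inserts themselves are not shown here. Reads of both inserts were aligned by the authors to the human genome, and the effect of mismatches on the FOXP2 values was not tested.

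The FOXP2 RNA did not separate the conditions. With ptrFOXP2 it measured 2.09 BPKM in replicate A and 21.8 BPKM in replicate B. With mmuFOXP2 it measured 30.2 BPKM in replicate A and 3.91 BPKM in replicate B. A library with high and a library with low FOXP2 RNA thus stood in each condition, and the order turned between rounds. The mean was 11.9 ± 13.9 BPKM with ptrFOXP2 and 17.1 ± 18.6 BPKM with mmuFOXP2 (SD, n = 2). The exact two-sided permutation test gave p = 0.667, where 0.333 is the smallest p that 2 libraries against 2 allow.

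In round A the mmuFOXP2 library held 14.5 times the FOXP2 RNA of the ptrFOXP2 library, and in round B the ptrFOXP2 library held 5.57 times that of the mmuFOXP2 library. Within a condition the libraries differed 10.4-fold for ptrFOXP2 and 7.73-fold for mmuFOXP2. Outside the pair, hsaFOXP2 libraries held 1.54 and 0.932 BPKM, cjaFOXP2 libraries 14.5 and 18.3 BPKM, and the empty vector 0.0045 BPKM in replicate A and a listed 0 in replicate B. All 4 libraries of the comparison were therefore above the empty vector, as their labels say. From densitometry of Western blots, the study proposes about equal FOXP2 protein amounts with hsaFOXP2 and with the non-human cDNAs. Those blots also covered a further transfection replicate of each condition, which was not sequenced. The values here are RNA alone.

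**Figure D1:**
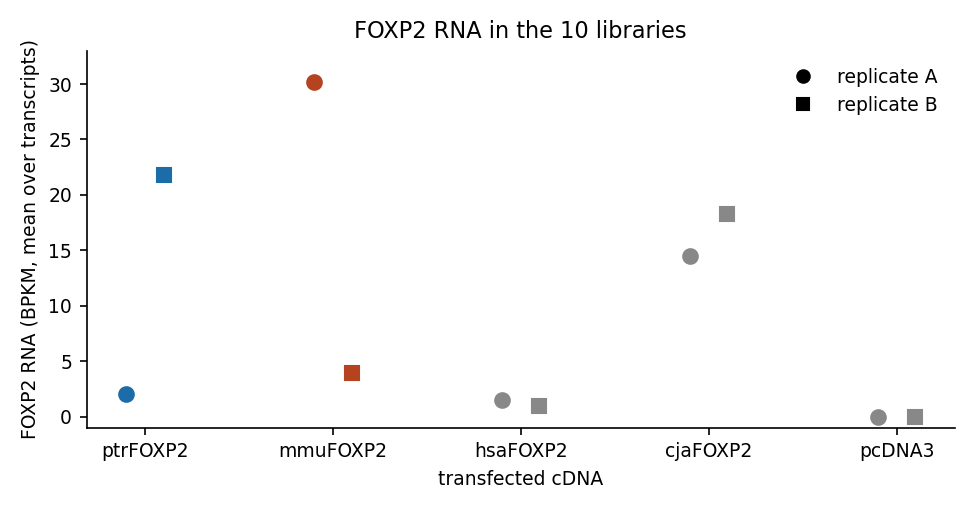
FOXP2 RNA (y axis, BPKM averaged over the transcripts of the gene) in the 10 libraries by transfected cDNA (x axis), with circles for replicate A and squares for replicate B. The ptrFOXP2 libraries sit at 2.09 and 21.8 BPKM and the mmuFOXP2 libraries at 30.2 and 3.91 BPKM, so that the conditions overlap.

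The deposited table lists 14 FOXP2 transcripts, and 13 of them were lowest in ptrFOXP2 replicate A. Replicate A of mmuFOXP2 was above replicate B of ptrFOXP2 in 12 transcripts and below it in 2, with ratios from 0.258 to 3.26. Of the partners of FOXP2, FOXP1 measured 3.70 and 3.99 BPKM with ptrFOXP2 and 4.40 and 3.54 BPKM with mmuFOXP2. FOXP4 measured 5.32 and 3.90 BPKM with ptrFOXP2 and 6.40 and 4.62 BPKM with mmuFOXP2. Both overlapped between conditions.

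The libraries were similar in extent, with 20200 to 20654 genes above 0 BPKM in the 4 libraries of the comparison. Read counts and library totals are not in the table, so the absolute depth is unknown and no counting error can be given. The steps between low values gave a rough depth relative to mmuFOXP2 replicate A of 1.27 and 1.03 in the ptrFOXP2 libraries and 1.12 in mmuFOXP2 replicate B. Markers of the cell type were present, with 11 of 17 neuroblastoma genes at a mean of at least 1 BPKM, among them HAND2 at 84.7 to 96.3 BPKM. The enzyme TH was listed at 0 in all 4 libraries. Fibroblast markers were also measured, with COL3A1 at 394 to 626 BPKM and the sum of the marker list at 690 and 848 BPKM with ptrFOXP2 and 890 and 619 BPKM with mmuFOXP2. DCN and S100A4 of that list had an unadjusted p under 0.05 from limma, both lower with ptrFOXP2. The labels name no cells other than SH-SY5Y, and which cells gave this RNA was not tested. In bulk RNA, fewer cells of a type and less RNA per cell cannot be told apart.

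Replicate B of ptrFOXP2 and replicate A of mmuFOXP2 stood apart from the other libraries and at opposite ends. Over the 13296 genes that averaged 1 BPKM or more in the 4 libraries, the SD of the log2 differences between them was 0.52, and 710 genes were at least 2-fold apart. The closest pair joined replicate A of ptrFOXP2 with replicate B of mmuFOXP2, with an SD of 0.24 and 46 genes at least 2-fold apart. Over the 10 libraries of the series no other of the 45 pairs was closer, and the next was replicate A of ptrFOXP2 with replicate A of the empty vector. Libraries with the same cDNA were farther apart than libraries of the same round. The SD was 0.37 within ptrFOXP2 and 0.36 within mmuFOXP2, with 254 and 271 genes 2-fold apart. It was 0.29 within round A and 0.32 within round B, with 156 and 198 genes 2-fold apart. With 6 distances from 4 libraries this order is a description and was not tested.

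**Figure D2:**
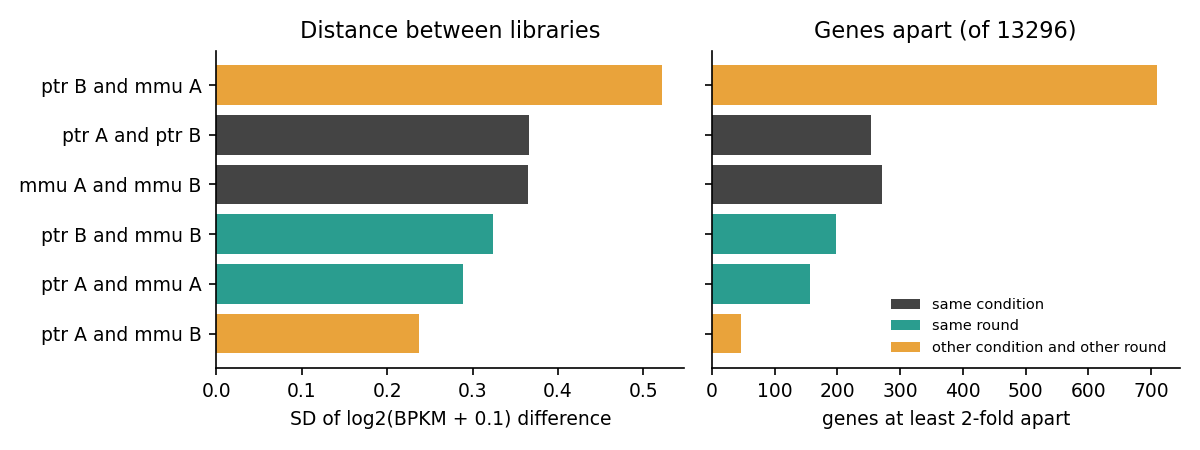
SD of the log2 differences (left, log2 units) and number of genes at least 2-fold apart (right) for the 6 pairs of the 4 libraries, over 13296 genes. Bars are coloured by what the pair shares, and the shortest (0.24, 46 genes) and the longest (0.52, 710 genes) both belong to pairs that share neither cDNA nor round.

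Of the 710 genes that were 2-fold apart between replicate B of ptrFOXP2 and replicate A of mmuFOXP2, 366 were higher in the former and 344 lower. The other libraries both lay between these ends in 627 of them (88.3%), against 44.8% of all 13296 genes. The 710 genes were chosen for a wide gap between the ends, which by itself favours a higher share, so the excess is no evidence of an order. FOXP2 RNA was high in both end libraries, at 21.8 and 30.2 BPKM, and low in the other libraries of the comparison. The hsaFOXP2 libraries, which are no part of the comparison, mostly differed in the same direction. Of the 710 genes, 620 (87.3%) had the same sign in replicate B minus replicate A of hsaFOXP2, and of all genes 74.6% did. Over the 13296 genes, which are not independent replicates, these differences had a Pearson's r of 0.59. Both are a replicate B minus a replicate A, so a difference between rounds would enter both and cannot be told apart here. The A minus B difference of cjaFOXP2 had an r of -0.06 with that of ptrFOXP2, -0.10 with mmuFOXP2 and -0.27 with hsaFOXP2 (13412 genes).

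No gene passed the test between ptrFOXP2 and mmuFOXP2. Limma was fitted to log2(BPKM + 0.1) of all 10 libraries in 5 groups, so that fold changes of low genes are understated. The spread behind its p-values and intervals was thus pooled over all 5 groups, not taken from ptrFOXP2 and mmuFOXP2 alone. The hsaFOXP2 libraries were the farthest apart of the 45 pairs, with an SD of 0.71 against 0.37 within ptrFOXP2 and within mmuFOXP2. Of 22238 genes tested, 0 had an adjusted p under 0.05 (0.0%), and 461 had an unadjusted p under 0.05 (2.07%), 187 higher (0.841%) and 274 lower (1.23%) with ptrFOXP2. Other settings gave 0 to 16 genes past the adjusted threshold. The 16 came without a filter on low values. All of them were listed at 0 in both libraries of 1 condition and at most 0.113 BPKM in the other. The fit of the 4 libraries alone gave 0 genes past that threshold, and 645 of 20855 genes had an unadjusted p under 0.05. Of the 13296 genes averaging 1 BPKM or more, 0 passed and 132 (0.993%) had an unadjusted p under 0.05, 35 higher (0.263%) and 97 lower (0.73%). The smallest adjusted p, 0.0799 from limma, belonged to MIR199B, a gene chosen for that value, listed at 0.0918 and 0.113 BPKM with ptrFOXP2 and at 0 with mmuFOXP2. Such symbols of small RNAs stand for short exon models in polyadenylated libraries, so mature small RNAs were not measured. Among the 10 contrasts between the conditions, which share libraries and 1 fit, the other 9 had between 692 and 3296 genes with an unadjusted p under 0.05, or 3.11% to 14.8% of those tested.

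The intervals show how large a difference could have gone unseen. The 95% interval from limma lay within a 2-fold change in either direction for 79.4% of the 22238 genes and for 85.4% of the 13296 genes averaging 1 BPKM or more. It lay within a 1.5-fold change for 42.7% and 45.3%. Its median half-width was 1.41-fold, and the median size of the difference itself was 1.09-fold. For the rest of the genes the interval reached past 2-fold in at least 1 direction, so a difference of that size was not excluded.

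Groups that did not overlap were common at this number of libraries. Of 22268 genes above 0 in at least 1 of the 4 libraries, 2428 (10.9%) were higher in both ptrFOXP2 libraries and 3587 (16.1%) were lower in both, or 27.0% together. Among genes averaging 1 BPKM or more the shares were 9.49% and 17.5%. After scaling by median ratios the split turned to 3145 higher and 2932 lower, so the excess of lower genes was not kept under that scaling.

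The genes with the smallest p among those that did not overlap differed mostly by less than 2-fold. SLC35D1, a nucleotide sugar transporter of the endoplasmic reticulum, measured 5.49 and 5.55 BPKM with ptrFOXP2 and 3.69 and 3.04 BPKM with mmuFOXP2. Its log2 fold change was 0.70 ± 0.16 (SE), with an unadjusted p of 0.00303 from limma and an adjusted p of 1. The ptrFOXP2 libraries agreed closely, and all 6 other libraries of the series were also above the mmuFOXP2 libraries, at 4.70 BPKM or more. LYPD6, a membrane-anchored protein of the Ly6 family, measured 10.4 and 11.8 BPKM with ptrFOXP2 and 7.52 and 8.01 BPKM with mmuFOXP2. C21orf7 measured 1.60 and 2.33 BPKM with ptrFOXP2 and 0.873 and 1.09 BPKM with mmuFOXP2. Of the 15 higher symbols that the rule named, 7 were small RNA models, 5 of them snoRNAs.

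On the lower side stood COL6A3, which encodes a chain of collagen VI. It measured 7.92 and 4.28 BPKM with ptrFOXP2 and 27.9 and 13.6 BPKM with mmuFOXP2, so both mmuFOXP2 libraries were above both ptrFOXP2 libraries. The log2 fold change was -1.72 ± 0.44 (SE), with an unadjusted p of 0.0053 from limma and an adjusted p of 1. The empty vector libraries, at 17.2 and 18.7 BPKM, lay within the mmuFOXP2 range, and the hsaFOXP2 libraries, at 3.93 and 2.41 BPKM, below both. DCN, the proteoglycan decorin, measured 2.20 and 1.72 BPKM with ptrFOXP2 and 3.14 and 2.99 BPKM with mmuFOXP2. SLC43A3, a nucleobase transporter, measured 0.627 and 0.486 BPKM with ptrFOXP2 and 2.18 and 1.24 BPKM with mmuFOXP2.

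Other lower genes were regulators and ion carriers. The sodium-calcium exchanger SLC8A1 measured 4.28 and 3.47 BPKM with ptrFOXP2 and 5.40 and 6.49 BPKM with mmuFOXP2. BHLHE40, a repressor tied to the circadian clock, measured 3.27 and 2.65 BPKM with ptrFOXP2 and 4.90 and 4.26 BPKM with mmuFOXP2. LDOC1 measured 6.07 and 4.47 BPKM with ptrFOXP2 and 7.96 and 9.43 BPKM with mmuFOXP2. The other 6 libraries of the series ranged from 4.07 to 7.83 BPKM for SLC8A1 and from 5.51 to 9.14 BPKM for LDOC1, so they lay on both sides of the gap. CXXC4, an inhibitor of Wnt signalling, measured 0.708 and 0.420 BPKM with ptrFOXP2 and 1.12 and 1.52 BPKM with mmuFOXP2. VPS37D, a subunit of the ESCRT-I sorting complex, measured 1.57 and 1.70 BPKM with ptrFOXP2 and 3.42 and 2.26 BPKM with mmuFOXP2.

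**Figure D3:**
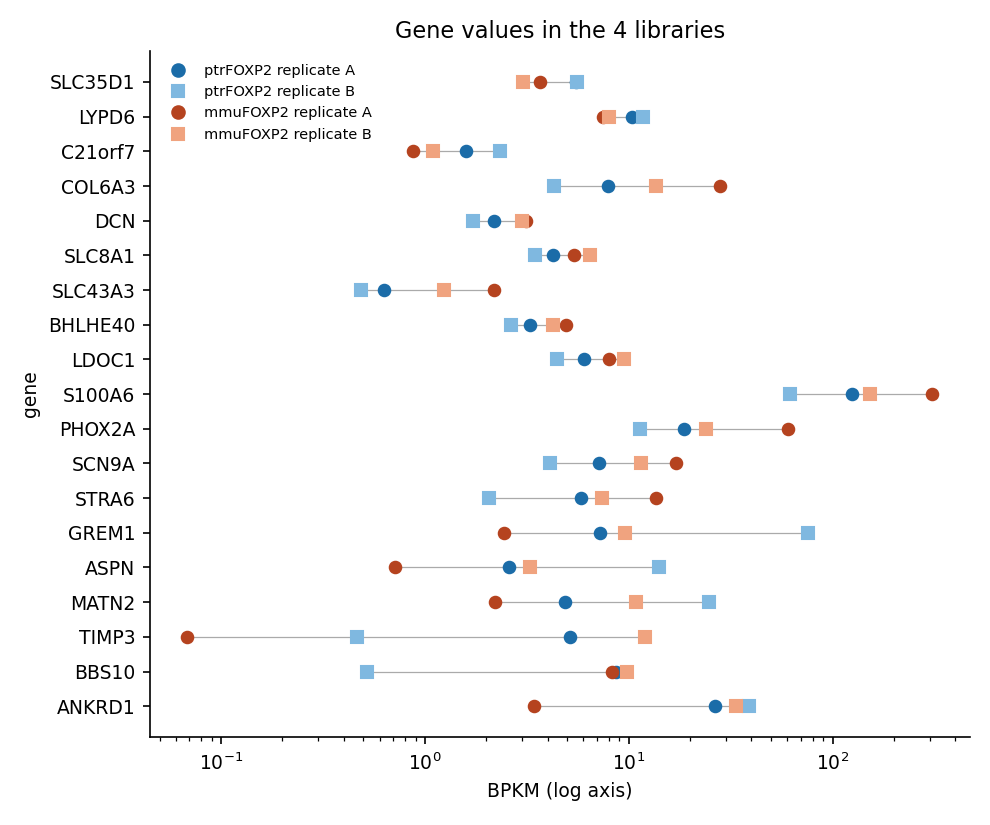
BPKM (x axis, log scale) of 19 named genes in the 4 libraries, with circles for replicate A, squares for replicate B and a line for the range. The groups are apart for SLC35D1 and COL6A3, replicate B of ptrFOXP2 and replicate A of mmuFOXP2 form the ends for PHOX2A and GREM1, and BBS10 is low in 1 library at 0.522 BPKM.

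Within each round the difference between ptrFOXP2 and mmuFOXP2 was taken per gene, and both rounds were set side by side. Of the 13296 genes, 8243 (62.0%) had the same sign in both rounds, and the differences of both rounds had a Pearson's r of 0.33 and a Spearman's rho of 0.34 over genes. At least 2-fold in the same direction in both rounds were 32 genes, 10 higher and 22 lower with ptrFOXP2, and at least 2-fold in opposite directions were 6. In all 32 genes replicate B of ptrFOXP2 and replicate A of mmuFOXP2 were the extremes of the 4 libraries, against 44.8% of all 13296 genes. The choice of the 32 already sets a ptrFOXP2 library against a mmuFOXP2 library at the extremes. In 24 of the 32 the conditions did not overlap, and 7 had an unadjusted p under 0.05. In 29 of the 32, replicate B minus replicate A of hsaFOXP2 had the sign of ptrFOXP2 minus mmuFOXP2. The same sign as replicate B of ptrFOXP2 minus replicate A of mmuFOXP2 was found in 74.6% of all genes and 87.3% of the 710 genes. These counts are favoured by the choice of the genes. The genes named in the following paragraphs from this set were chosen after their values were seen.

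**Figure D4:**
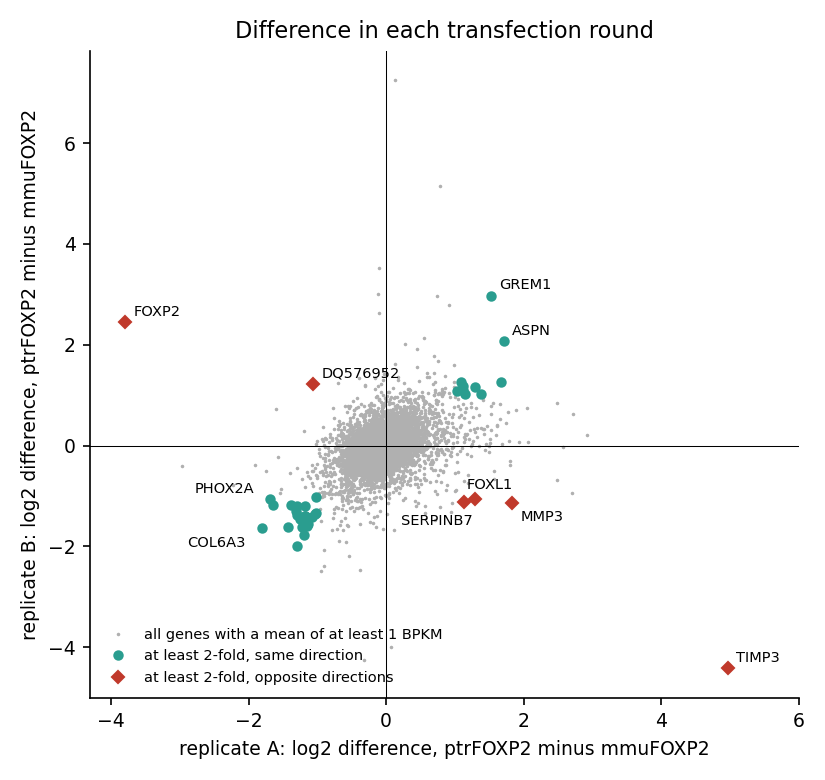
Log2 difference of ptrFOXP2 minus mmuFOXP2 in replicate A (x axis) and in replicate B (y axis), with a grey point for each of 13296 genes. The 32 green genes are 2-fold apart in the same direction in both rounds, and the 6 red genes, FOXP2 and TIMP3 among them, in opposite directions.

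Several of the lower genes encode S100 proteins or enzymes of hyaluronan and heparan sulfate. S100A6, a calcium-binding protein, measured 124 and 61.8 BPKM with ptrFOXP2 and 309 and 152 BPKM with mmuFOXP2, a 2-fold spread within each condition. S100A10, the partner of annexin A2, measured 21.8 and 11.7 BPKM with ptrFOXP2 and 58.8 and 36.3 BPKM with mmuFOXP2. The hyaluronan synthase HAS2 measured 17.6 and 8.97 BPKM with ptrFOXP2 and 39.9 and 23.7 BPKM with mmuFOXP2. Its antisense gene HAS2-AS1 had the same order, at 1.31 and 0.981 against 3.56 and 2.36 BPKM, and reads of both cannot be told apart where they overlap. The heparan sulfate sulfotransferases HS3ST3A1 and HS3ST3B1, close paralogs that may share reads, were 2.43 and 2.48 times higher in the mean of mmuFOXP2. The hsaFOXP2 libraries measured 232 and 65.1 BPKM for S100A6, 115 and 7.36 BPKM for S100A10 and 69.8 and 15.3 BPKM for HAS2. These gaps were wider than those between the means of ptrFOXP2 and mmuFOXP2.

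Genes of neurons and neuroblasts were among them as well. PHOX2A, the homeobox gene of the noradrenergic lineage, measured 18.6 and 11.4 BPKM with ptrFOXP2 and 60.3 and 24.0 BPKM with mmuFOXP2. The sodium channel gene SCN9A measured 7.15 and 4.12 BPKM with ptrFOXP2 and 17.1 and 11.4 BPKM with mmuFOXP2. CNTNAP2, a neurexin family gene known as a FOXP2 target, measured 7.24 and 3.04 BPKM with ptrFOXP2 and 16.3 and 8.28 BPKM with mmuFOXP2. It was apart between conditions by less than the gap within hsaFOXP2, at 28.3 and 1.50 BPKM. The retinol uptake receptor STRA6 measured 5.86 and 2.07 BPKM with ptrFOXP2 and 13.6 and 7.36 BPKM with mmuFOXP2. The hsaFOXP2 libraries measured 101 and 19.3 BPKM for PHOX2A, 29.3 and 5.88 BPKM for SCN9A and 25.5 and 5.83 BPKM for STRA6. In these genes too the gap within hsaFOXP2 was wider than that between the means of ptrFOXP2 and mmuFOXP2.

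The higher genes of the set showed the opposite order. GREM1, a secreted antagonist of bone morphogenetic proteins, measured 7.25 and 75.7 BPKM with ptrFOXP2 and 2.45 and 9.54 BPKM with mmuFOXP2. The conditions overlapped, since replicate A of ptrFOXP2 was below replicate B of mmuFOXP2. ASPN, a matrix proteoglycan, measured 2.58 and 14.1 BPKM with ptrFOXP2 and 0.716 and 3.29 BPKM with mmuFOXP2. The matrilin gene MATN2 measured 4.88 and 24.7 BPKM with ptrFOXP2 and 2.20 and 10.8 BPKM with mmuFOXP2. In all 3 replicate B was above replicate A in both conditions, and the conditions overlapped. LAMP5, a lysosome-associated membrane protein of neurons, measured 16.2 and 17.3 BPKM with ptrFOXP2 and 6.15 and 8.48 BPKM with mmuFOXP2. Its conditions were apart, and the hsaFOXP2 libraries, at 3.32 and 94.95 BPKM, spanned both.

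The largest gaps within a condition were often due to a single library. BBS10, a chaperonin-like protein of the cilium, measured 0.522 BPKM in replicate B of ptrFOXP2 and 8.66, 8.25 and 9.78 BPKM in the others, and 7.82 BPKM or more in all 9 other libraries of the series. ZC3H12D, an RNA-binding protein, measured 17.8 BPKM in replicate B of ptrFOXP2 and at most 0.0263 BPKM in the other 3. SHPK, a sugar kinase, measured 0.348 BPKM in replicate B of mmuFOXP2 and 2.96 to 3.49 BPKM in the others. ZC3H12D and SHPK were chosen after their values were seen. At least 2-fold below or above all 3 others were 58 and 38 genes in replicate B of ptrFOXP2, 69 and 20 in replicate A of mmuFOXP2, 8 and 3 in replicate B of mmuFOXP2, and 2 and 0 in replicate A of ptrFOXP2.

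Other genes with a wide gap within a condition encode signals and enzymes. The neuropeptide gene NTS measured 5.03 and 0.377 BPKM with ptrFOXP2 and 6.33 and 9.04 BPKM with mmuFOXP2. DIRAS3, an imprinted small GTPase, measured 22.8 and 2.76 BPKM with ptrFOXP2 and 29.8 and 15.8 BPKM with mmuFOXP2. PSG4, a pregnancy-specific glycoprotein, measured 3.68 and 23.5 BPKM with ptrFOXP2 and 1.21 and 13.6 BPKM with mmuFOXP2. Replicate A was thus below replicate B in both conditions for PSG4. The same held for GUCY1A3, a subunit of soluble guanylate cyclase, at 4.29 and 19.1 BPKM with ptrFOXP2 and 0.681 and 10.6 BPKM with mmuFOXP2. It was turned for PLD5, at 9.90 and 1.90 against 15.4 and 1.37 BPKM, and for the estrogen sulfotransferase SULT1E1, at 12.8 and 6.22 against 38.8 and 3.71 BPKM.

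Gene lists of 41 kinds were compared by counts and medians, and 0 genes of any list passed limma's test. Beside them, the median log2 fold change of all 22238 genes was -0.02, with 9471 positive and 12767 negative values. Mitosis genes, which drive chromosome segregation, had 29 of 30 negative values and a median of -0.18. CENPE, a kinetochore motor, measured 5.86 and 5.22 BPKM with ptrFOXP2 and 7.51 and 6.98 BPKM with mmuFOXP2. The proliferation marker MKI67 measured 20.7 and 20.1 BPKM with ptrFOXP2 and 24.4 and 23.0 BPKM with mmuFOXP2. The conditions were apart in 5 of the 30 genes, all lower, where 16.1% of all genes were lower, and 0 had an unadjusted p under 0.05. Without replicate A of mmuFOXP2 16 of the 30 were negative, and without replicate B of ptrFOXP2 17. Reference genes, which are used because they vary little, had 14 of 17 negative values with a median of -0.16, close to that of mitosis.

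Further lists had the same ends. Genes of glycolysis and the hypoxia response had 26 of 32 negative values (median -0.15), and 17 without replicate A of mmuFOXP2. Antioxidant genes under NRF2 had 24 of 28 negative values (median -0.10), and 15 without that library. Feedback genes of ERK signalling, which dampen growth factor signals, had 12 of 15 negative values with a median of -0.40, the lowest of the lists named here. That median was -0.15 without replicate A of mmuFOXP2, -0.22 without replicate B of ptrFOXP2 and -0.22 with a pseudocount of 1. The phosphatase gene DUSP4, chosen after its values were seen, measured 43.6 and 30.2 BPKM with ptrFOXP2 and 53.5 and 50.9 BPKM with mmuFOXP2. SPRY4 measured 10.3 and 5.60 BPKM with ptrFOXP2 and 12.2 and 11.8 BPKM with mmuFOXP2, with an unadjusted p of 0.0535 from limma. PHLDA1 measured 31.0 and 14.5 BPKM with ptrFOXP2 and 42.2 and 34.3 BPKM with mmuFOXP2. In SPRY4 and PHLDA1 the gap came mostly from replicate B of ptrFOXP2, and the list mean was lowest there.

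Neuronal lists differed in their order. Genes of the neuronal cytoskeleton and growth had 18 of 28 negative values (median -0.16), and the conditions were apart in 3, all lower, against 16.1% of all genes. The median was -0.03 without replicate B of ptrFOXP2, -0.05 without replicate A of mmuFOXP2, -0.32 without replicate A of ptrFOXP2 and -0.05 with a pseudocount of 1. The list mean was lowest in replicate B of ptrFOXP2 and highest in replicate A of mmuFOXP2. The list mean of granins and neuropeptides, by contrast, was highest in replicate B of mmuFOXP2, and that of synaptic release genes in replicate A of ptrFOXP2. By summed BPKM, granins and neuropeptides kept the former ends, at 2647 and 1413 BPKM with ptrFOXP2 and 3772 and 2162 BPKM with mmuFOXP2. GAP43, a growth cone protein, measured 10.9 and 2.60 BPKM with ptrFOXP2 and 17.4 and 7.99 BPKM with mmuFOXP2. SCG2, which encodes a granin of dense-core vesicles, measured 996 and 451 BPKM with ptrFOXP2 and 1853 and 748 BPKM with mmuFOXP2. In both genes the conditions overlapped. SCG5, a chaperone of a prohormone convertase, measured 31.9 and 35.1 BPKM with ptrFOXP2 and 15.8 and 27.8 BPKM with mmuFOXP2. The neuropeptide gene NMU measured 4.35 and 3.79 BPKM with ptrFOXP2 and 7.91 and 5.76 BPKM with mmuFOXP2, with an unadjusted p of 0.0264 from limma and an adjusted p of 1. Of the adrenergic identity genes 14 of 20 had negative values, and 10 without replicate B of mmuFOXP2. Of the mesenchymal ones 15 of 24 had negative values, and 12 without replicate A of ptrFOXP2.

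Potassium channel genes had the smallest p of the ion channels. KCNMA1, the large-conductance calcium-activated channel, measured 15.8 and 14.3 BPKM with ptrFOXP2 and 23.0 and 21.6 BPKM with mmuFOXP2. KCNQ5, an M-current channel, measured 8.88 and 7.47 BPKM with ptrFOXP2 and 10.6 and 11.2 BPKM with mmuFOXP2. Both had tight replicates and an unadjusted p of 0.0185 and 0.0151 from limma, with an adjusted p of 1. In the interferon and MHC class I list, 24 of 34 genes had negative values and the conditions were apart in 14 lower and 4 higher genes, against 16.1% and 10.9% of all genes. The list median was -0.10, against -0.02 over all genes. Among genes averaging 1 BPKM or more it was -0.07, against -0.05. After scaling by median ratios 22 of the 34 were negative. IFI44, an interferon-induced gene, measured 2.70 and 2.38 BPKM with ptrFOXP2 and 4.16 and 3.37 BPKM with mmuFOXP2.

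Among the libraries of the comparison, targets of the YAP and TEAD factors were lowest in replicate A of mmuFOXP2. The list had 10 of 19 positive values. Its median log2 fold change was 0.15, or -0.01 without that library and 0.01 without replicate B of ptrFOXP2. It was 0.25 without replicate B of mmuFOXP2 and 0.35 without replicate A of ptrFOXP2. ANKRD1, a nuclear ankyrin repeat protein, measured 26.6 and 39.0 BPKM with ptrFOXP2 and 3.43 and 33.6 BPKM with mmuFOXP2. CTGF, a secreted matrix protein, measured 40.5 and 25.1 BPKM with ptrFOXP2 and 7.11 and 40.3 BPKM with mmuFOXP2. CYR61, of the same family and chosen after its values were seen, measured 158 and 175 BPKM with ptrFOXP2 and 71.3 and 150 BPKM with mmuFOXP2. Libraries outside the comparison ranged from 0.294 to 23.5 BPKM for ANKRD1, from 2.07 to 15.4 BPKM for CTGF and from 16.5 to 113 BPKM for CYR61. Replicate A of mmuFOXP2 lay within these ranges, and the other libraries of the comparison lay above them. The actin gene ACTA2 measured 64.4 and 71.3 BPKM with ptrFOXP2 and 41.7 and 44.2 BPKM with mmuFOXP2, with an unadjusted p of 0.0466 from limma and an adjusted p of 1.

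A few lists had more positive than negative values. Genes of cholesterol and fatty acid synthesis had 20 of 30 positive values with a median of 0.06, and 14 without replicate B of ptrFOXP2. Nuclear and non-polyadenylated transcripts, listed as signs of RNA quality, had 8 of 10 positive values (median 0.27, or 0.07 without replicate B of ptrFOXP2). MALAT1, a nuclear long RNA, measured 29.1 and 89.9 BPKM with ptrFOXP2 and 14.6 and 40.4 BPKM with mmuFOXP2, and the sum of that list was 150 and 234 BPKM with ptrFOXP2 and 123 and 144 BPKM with mmuFOXP2. MALAT1 was thus highest in replicate B of ptrFOXP2 and lowest in replicate A of mmuFOXP2. The part of RNA quality in the other differences was not tested.

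**Figure D5:**
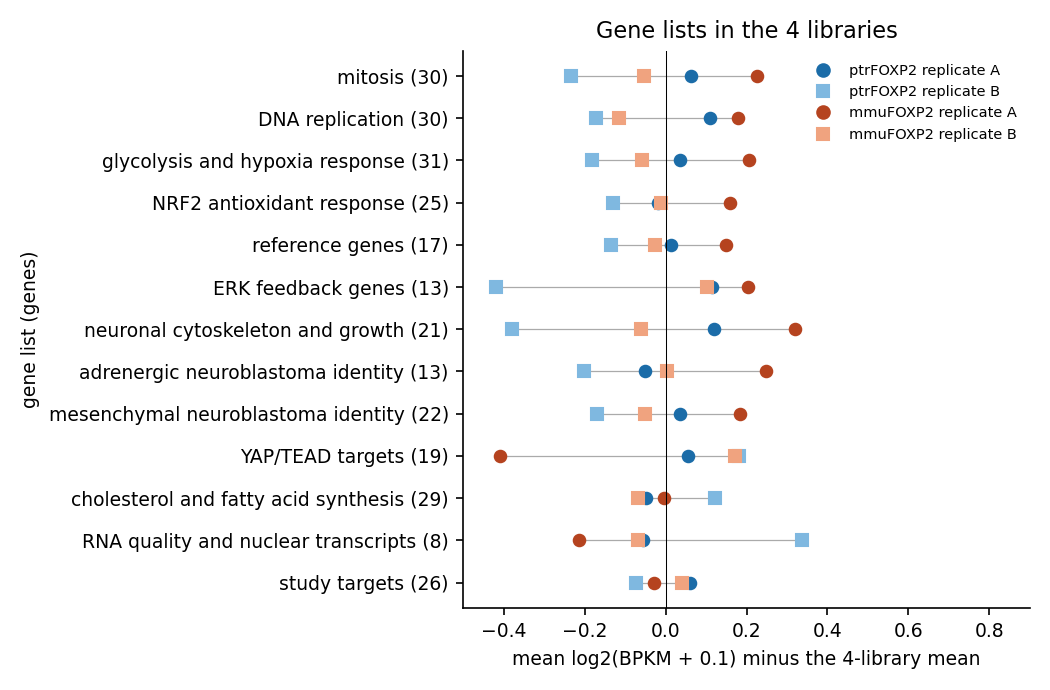
Mean log2(BPKM + 0.1) of 13 gene lists in each of the 4 libraries, minus the mean of the list over these libraries (x axis), with the number of genes averaging 1 BPKM or more in brackets. In most lists replicate B of ptrFOXP2 and replicate A of mmuFOXP2 form the ends, and YAP and TEAD targets are low in replicate A of mmuFOXP2 at -0.41.

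The 40 genes that the study had picked as FOXP2 targets from these and other libraries had 15 positive and 25 negative values, and their median log2 fold change of -0.02 equalled that of all genes. After scaling by median ratios 22 were positive and 18 negative (median 0.01). They were chosen for differences of hsaFOXP2 from the other conditions, so their values here are not independent evidence. The conditions were apart in 6 higher and 5 lower genes, against 10.9% and 16.1% of all genes. An unadjusted p under 0.05 was found for 3, all lower with ptrFOXP2, against 1.23% of all genes. IFI30, a lysosomal thiol reductase, measured 8.69 and 6.16 BPKM with ptrFOXP2 and 9.07 and 10.9 BPKM with mmuFOXP2. PTPRQ and CDH4, the others, were at most 0.128 BPKM in all 4 libraries. MSN, the cytoskeletal linker moesin, measured 82.7 and 75.0 BPKM with ptrFOXP2 and 42.3 and 72.6 BPKM with mmuFOXP2, against 2.80 and 1.68 BPKM with hsaFOXP2.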

How the data were processed

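RNA-seq of stably transfected SH-SY5Y cells was carried out by the authors from polyadenylated RNA. Per the study's methods, the authors aligned reads to hg19 with STAR (version not given in the sources used here), summed the aligned bases on the exons of each UCSC transcript, and deposited the result as BPKM, an RPKM computed on bases. Submitters' processing notes also name hg19. The table holds 80922 transcripts. Of these, 2 without a gene symbol were left out, and BPKM values were averaged over the transcripts of each of 27992 symbols. Whether strand was used in counting is not stated. No coordinates of the deposited features were used, since the reference at hand is GRCh38, and 1 reference sequence was taken from GENCODE v44.

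Genes above 0 BPKM in at least 2 of the 10 libraries were tested in R 4.3.3 with limma 3.58.1, after a log2 transform with a pseudocount of 0.1, with a group per condition, a mean-variance trend, robust moderation and Benjamini-Hochberg adjustment at 0.05. Distances, round differences and list levels used genes averaging 1 BPKM or more in the 4 libraries, in Python 3.11.15 (pandas 2.3.3, numpy 2.4.6, scipy 1.17.1). Plots were made with matplotlib 3.10.9. Single values were compared by exact permutation. The procedure was tested on simulated data with independent noise in each library. Those data lack the A minus B differences that conditions share here, so they cannot show how the fit performs on these libraries. Libraries, gene lists and the rule for named genes were chosen with earlier results of these data known. The rule took FOXP2, genes past the threshold, up to 15 higher and 15 lower genes with the smallest p among those apart between conditions and with a larger group mean of 1 BPKM or more, the 4 members of smallest p in each list, reference genes, and up to 6 genes per condition with the widest gap between its libraries, averaging 5 BPKM or more. Other genes are marked in the text or stand for a list or a partner of FOXP2.

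Per the labels, transfection was done on 2 occasions, giving replicates A and B, and the letters were therefore taken to pair the libraries. The A minus B difference of ptrFOXP2 and that of mmuFOXP2 had r = 0.52 over 13296 genes. Over all 10 pairs of conditions (13412 genes) r was above 0.1 in 6 and ranged from -0.33 to 0.51, with all 4 pairs that hold cjaFOXP2 below 0. Alternatives were the replicate block, the 4 libraries alone, other pseudocounts (1 and 0.01), filters, scalings and summaries of transcripts, moderation without trend, FOXP2 RNA as a covariate, and each library left out.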

Additional observations from a re-analysis of the deposited data

Results flagged for a closer look

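For 6 genes the difference between ptrFOXP2 and mmuFOXP2 was at least 2-fold in each transfection round but in opposite directions. The difference between rounds was not tested, and the genes were chosen by it. FOXP2 itself had a log2 difference of -3.79 in round A and 2.45 in round B. TIMP3, an inhibitor of matrix metalloproteases, had 4.97 in round A and -4.42 in round B. It measured 5.18 BPKM or more in replicate A of ptrFOXP2 and replicate B of mmuFOXP2. In replicate B of ptrFOXP2 it measured 0.464 BPKM and in replicate A of mmuFOXP2 0.0684 BPKM. Outside the pair TIMP3 measured 0.764 and 1.10 BPKM with hsaFOXP2, 1.05 and 0.500 BPKM with cjaFOXP2, and 4.87 and 3.11 BPKM with the empty vector. The protease gene MMP3 had 1.83 and -1.13, the protease inhibitor gene SERPINB7 had 1.13 and -1.12, and the forkhead gene FOXL1 had 1.29 and -1.07. In these 4 genes the value was highest in replicate B of mmuFOXP2. DQ576952, a transcript without a gene name, had -1.06 and 1.22.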

How the results depend on the processing

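The count of 0 genes with an adjusted p under 0.05 was kept in the fit of the 4 libraries alone, with pseudocounts of 1 and 0.01, among genes averaging 1 BPKM or more, with summed transcripts, with median-ratio scaling, without trend or robust moderation and with FOXP2 RNA as a covariate. It was 16 with no filter on low values, 1 with the highest transcript and 1 with quantile normalization (MIR199B, adjusted p = 0.0277 from limma). All of these genes were listed at 0 in both libraries of 1 condition and at most 0.113 BPKM in the other. The block on replicate letter, which pairs the rounds, gave 0 genes with an adjusted p and 671 with an unadjusted p under 0.05. Leaving out a library gave 0 to 4 genes past the adjusted threshold, with 2 without replicate A of mmuFOXP2 (LOC642852 and SHPK) and 4 without replicate A of ptrFOXP2 (BBS10, MIR3128, PIK3R6 and ZC3H12D). In such a fit the lone library of a condition is assumed to vary like the other groups, and these calls rest on that assumption. Genes with an unadjusted p under 0.05 then ranged from 238 without replicate B of ptrFOXP2 to 925 without replicate A of ptrFOXP2, with 777 without replicate B of mmuFOXP2. They numbered 134 when filtering for a mean of 1 BPKM. Of genes averaging 1 BPKM or more, 1262 were higher in both ptrFOXP2 libraries and 2331 lower.

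The log2 difference of FOXP2 RNA ran from -2.33 to 0.99 when a library was left out, and it was 0.79 without replicate A of mmuFOXP2 and 0.99 without replicate A of ptrFOXP2. Of 78 single genes under 1239 alternatives, 30 values in 13 genes turned in sign, none of them past the threshold in the fit as reported, and the cause was not tested. For FOXP1 it was 0.0041 with median-ratio scaling, 0.0039 with quantile normalization and 0.023 with the covariate. A pseudocount of 1 gave -0.31 for TIMP3, -0.00097 for SERPINB7 and -0.040 for FOXL1. The covariate gave -0.70 for TIMP3, -0.27 for SERPINB7, -0.12 for FOXL1 and 0.021 for PLD5. Leaving out a library gave ranges of -0.19 to 0.11 for FOXP1, -0.0091 to 2.31 for MATN2, -2.81 to 3.36 for TIMP3, -0.59 to 1.28 for MMP3, -0.63 to 0.63 for SERPINB7, -1.02 to 1.23 for FOXL1 and -2.93 to 0.070 for DIRAS3. They were -0.54 to 2.85 for PSG4, -0.23 to 3.56 for GUCY1A3, -1.79 to 1.61 for PLD5, -2.11 to 1.24 for SULT1E1, -0.060 to 3.20 for ANKRD1 and -0.34 to 2.15 for CTGF.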

Other observations

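Other gene groups also had more negative than positive values, as had all genes. DNA replication genes, which encode the origin and fork machinery, had 22 of 30 negative values with a median log2 fold change of -0.07, but 7 (median 0.09) without replicate A of mmuFOXP2 and 5 (median 0.07) without replicate B of ptrFOXP2. Immediate early genes, the first response to growth signals, had 16 of 26 negative values with a median of -0.31. Without replicate B of mmuFOXP2 13 were negative (median -0.03), without replicate B of ptrFOXP2 the median was -0.10, and with a pseudocount of 1 it was -0.10. Axon guidance genes had 31 of 50 negative values, with the conditions apart in 11 lower and 5 higher genes, against 16.1% and 10.9% of all genes. Clustered protocadherins, adhesion molecules of neurons whose variable exons share sequence, had 38 of 53 negative values with a median of -0.02, as over all genes. SOX9, a transcription factor of neural crest and cartilage, measured 27.8 and 16.0 BPKM with ptrFOXP2 and 39.6 and 34.3 BPKM with mmuFOXP2, with an unadjusted p of 0.0481 from limma and an adjusted p of 1. The imprinted cell cycle inhibitor CDKN1C measured 0.767 and 0.762 BPKM with ptrFOXP2 and 1.77 and 1.25 BPKM with mmuFOXP2.

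The epithelial keratins did not share 1 direction. KRT8 measured 15.9 and 60.8 BPKM with ptrFOXP2 and 9.38 and 18.98 BPKM with mmuFOXP2, so it was highest in replicate B of ptrFOXP2 and lowest in replicate A of mmuFOXP2. KRT18 had the same ends, at 186 and 257 BPKM with ptrFOXP2 and 106 and 213 BPKM with mmuFOXP2. KRT19 measured 1.49 and 1.25 BPKM with ptrFOXP2 and 2.87 and 1.24 BPKM with mmuFOXP2, so it was highest in replicate A of mmuFOXP2. The kidney epithelial list that holds these genes summed to 204 and 319 BPKM with ptrFOXP2 and 119 and 234 BPKM with mmuFOXP2. Immune cell markers summed to at most 0.655 BPKM in each library.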
